A study of Homo sapiens with 8 samples.

Results

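Kasumi-1 cells that had received RNA for wild type NR4A1 were compared with cells that had received RNA for GFP, gene by gene, 6 h after electroporation. All genes that the arrays measured with a probe set of their own symbol were taken, 19775 genes from 41091 of the 54613 probe sets, and where a gene had several, its brightest probe set stood for it. Kasumi-1 is an acute myeloid leukemia (AML) cell line with the translocation that fuses RUNX1 to RUNX1T1 (AML1-ETO). The study used 8 arrays, of which 3 came from cells given GFP RNA (GFP), 3 from cells given NR4A1 RNA (NR4A1 WT) and 2 from cells given NR4A1 with a changed zinc finger in its DNA binding domain (NR4A1 CEAA). All cells of all groups were the same line and were electroporated with in vitro transcribed RNA (IVT-RNA), so the comparison holds the electroporation constant, but it describes a short, transient expression of exogenous NR4A1 in a single line which, in the study's description, makes no NR4A protein of its own. Levels are log2 intensities of Affymetrix U133 Plus 2.0 arrays after Robust Multiarray Analysis (RMA), and a difference of 1 is a 2-fold difference. The sources do not state whether the arrays of a group stem from separate cultures, and the p-values therefore cover only the spread between these arrays, which may be technical.

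NR4A1 (Nur77) is an orphan nuclear receptor, a transcription factor that needs no bound hormone to act. It binds DNA as a monomer at the NGFI-B response element, AAAGGTCA, or as a dimer at paired sites, and it can both activate and repress genes. In blood cells NR4A1 and its paralog NR4A3 are known as suppressors of myeloid leukemia, and NR4A1 is an immediate early gene of antigen receptor signaling in lymphocytes.

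The response to NR4A1 WT had about as many genes in each direction, but the large changes were rises. A gene is called higher or lower here where its Benjamini-Hochberg adjusted p over all genes was under 0.05 in limma, a linear model that shares the estimate of the spread across genes. By this rule 1971 genes were higher, 9.97% of those tested, and 2034 were lower, 10.3%, so that 20.3% of genes were called in one direction or the other. Among the called genes the median fold was 1.29 for those that were higher and 1.30 for those that were lower. At least 1.5-fold differences were found in 463 higher genes (2.34% of those tested) and 433 lower genes (2.19%), and at least 2-fold differences in 163 (0.824%) and 83 (0.42%). Rises of at least 4-fold numbered 36 (0.182%) and of at least 8-fold 13 (0.0657%), whereas the largest fall, that of JCAD, was 3.58-fold. Rank Product, the test named in the study's methods, found 443 higher (2.24%) and 419 lower genes (2.12%) at a q under 0.05, and limma called 443 and 418 of them in the same direction. The differences between a GFP and an NR4A1 WT array had a standard deviation of 0.319 to 0.341 across genes in the 9 such pairs, against 0.158 to 0.164 within the GFP group and 0.189 to 0.208 within the NR4A1 WT group.

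**Figure D1:**
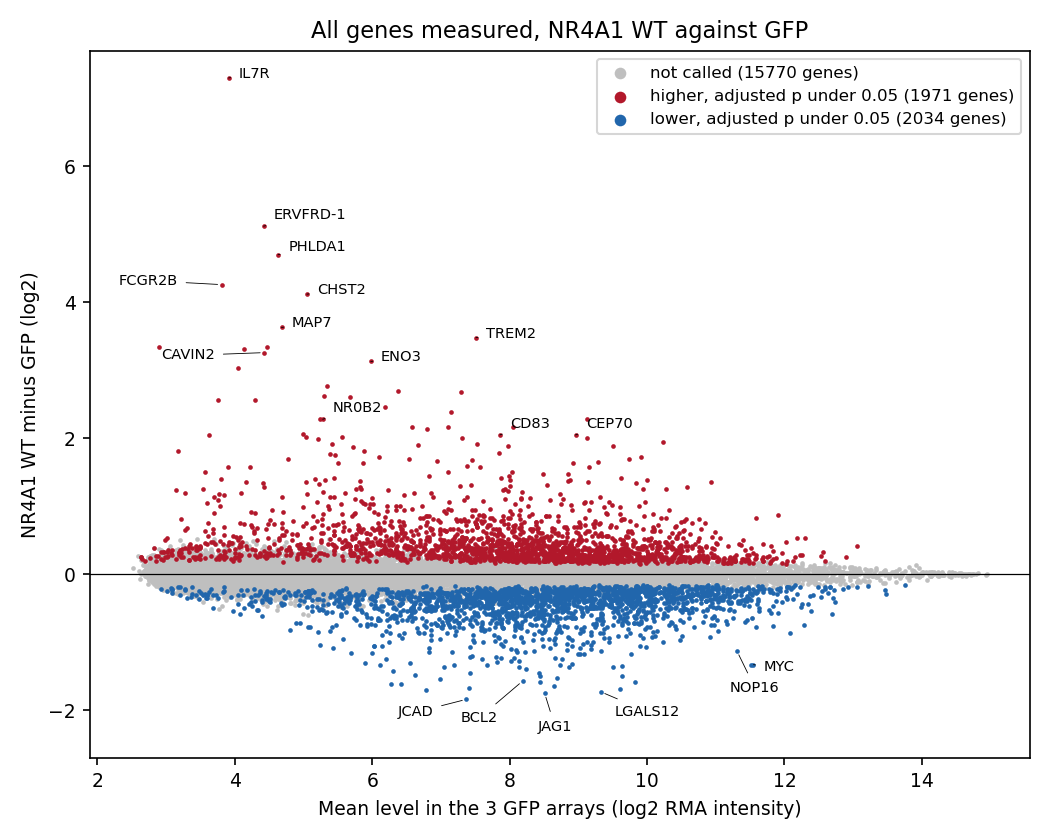
Difference between NR4A1 WT and GFP (log2, vertical axis) against the mean level in the 3 GFP arrays (log2 RMA intensity, horizontal axis) for all 19775 genes, 1 point per gene, with the 1971 higher genes in red, the 2034 lower genes in blue and the others in gray. The rises reach 7.30 (IL7R) and the largest lie at genes that were dim with GFP, while no fall passes -1.84 (JCAD).

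Of the higher genes, 197 had a mean with GFP under the lowest median of a GFP array (4.766), and of the lower genes 80 did. No detection call was used, so these levels are not shown to be above background, and the fold of such a gene is not read as a ratio of transcript amounts. Since these are bulk samples, fewer expressing cells and less RNA per cell cannot be told apart.

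The response element itself was looked up in the promoters of the genes called, because it is the sequence that NR4A1 is known to read. RefSeq promoter windows of GRCh38.p14, 250 bases before and 50 after each transcription start site, were at hand for 15382 of the genes tested, with 21485 windows in all. The element, searched on both strands, stood in 2.81% of the 605 windows of genes that were higher by at least 1.5-fold, against 0.973% of the windows of all genes tested. It stood in 0 of the 540 windows of genes that were lower by at least 1.5-fold. With windows taken as independent this allows a share of up to 0.556%, a limit that covers counting error only. The 540 windows belong to 335 genes and the 605 to 376, and windows of the same gene can overlap and share a site. The limit is therefore too low. Among genes called at any fold the element was in 1.62% of the windows of higher and 0.646% of those of lower genes, and in 0.928% of the windows of genes not called. The windows of these lower genes were richer in G and C, with a median of 66.0% against 63.3% for the higher genes and 61.7% for genes not called. The part of base composition in the shares of this element was not tested. The shorter core of the element, AGGTCA, which other nuclear receptors also read and which every full element contains, was in 75 of the 605 windows of the higher genes (12.4%) and 54 of the 540 windows of the lower genes, with 11.7% for all genes tested. These shares describe the windows, were not tested, and say nothing about distal sites.

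Genes with the element that rose at least 2-fold included ENO3, FAM13A, LMO3 and AGMAT, whose windows are shown because they are the largest rises with the letters before the start site. The stretches lie at chr17:4950900-4950999 (ENO3, plus strand), chr4:88823233-88823300 (FAM13A, minus strand), chr12:16606093-16606192 (LMO3, minus strand) and chr1:15585052-15585137 (AGMAT, minus strand) of GRCh38.p14. They are written along the strand of the gene, and capitals mark the element, as AAAGGTCA in FAM13A and as its reverse complement TGACCTTT in the others.
ENO3: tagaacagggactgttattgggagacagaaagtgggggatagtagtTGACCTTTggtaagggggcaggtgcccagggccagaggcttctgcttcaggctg
FAM13A: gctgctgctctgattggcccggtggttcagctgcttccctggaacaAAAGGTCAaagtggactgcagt
LMO3: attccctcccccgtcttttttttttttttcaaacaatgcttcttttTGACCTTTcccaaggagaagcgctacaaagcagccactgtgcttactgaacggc
AGMAT: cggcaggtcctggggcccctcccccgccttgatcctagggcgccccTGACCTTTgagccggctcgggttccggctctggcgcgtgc

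ENO3 encodes the muscle form of the glycolytic enzyme enolase. Its level was 5.95, 5.88 and 6.13 in the GFP arrays and 9.04, 9.20 and 9.12 in the NR4A1 WT arrays, an 8.78-fold rise (log2 difference 3.13, SE 0.08, adjusted p = 3.8e-07). The groups were more than 2 log2 units apart, although the other probe set of ENO3 differed by only 0.29 and was not called. FAM13A rose 3.73-fold (log2 difference 1.90, SE 0.07, adjusted p = 2.15e-06), and 2 of its 4 other probe sets rose. LMO3, a LIM domain transcription cofactor, rose by 1.58 from a level of 3.84 to 3.94 with GFP, and none of its 3 other probe sets was called. AGMAT, an enzyme of the agmatinase family, rose by 1.37 (SE 0.06, adjusted p = 3.8e-06). EXO1, a DNA repair exonuclease that rose by 1.04, has the element right at its start site.

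The largest rise of all genes tested was that of IL7R, the receptor chain for the lymphoid cytokine interleukin 7. It read 3.86, 3.98 and 3.90 with GFP and 11.14, 11.25 and 11.24 with NR4A1 WT, a log2 difference of 7.30 (SE 0.06, adjusted p = 3.1e-10), and its other probe set rose by 5.69. All GFP arrays lay under the array medians, and all NR4A1 WT arrays were among bright signals. With NR4A1 CEAA the gene read 3.96 and 4.05, and the direct difference between NR4A1 WT and NR4A1 CEAA was 7.21 (adjusted p = 8.4e-10).

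Other large rises came from genes of different kinds. PHLDA1, a pleckstrin homology-like protein linked to cell survival, read 5.06, 4.23 and 4.59 with GFP and 9.20, 9.38 and 9.38 with NR4A1 WT, and 4 of its 5 other probe sets were higher too. CHST2, a sulfotransferase that modifies cell surface sugars, went from 5.36, 4.77 and 5.01 to 9.07, 9.33 and 9.11, a log2 difference of 4.12 (SE 0.15, adjusted p = 1.85e-06) that its other probe set, at 0.44, did not share. In both genes the GFP arrays spread more widely than the NR4A1 WT arrays, but the groups stayed far apart. MAP7, which binds microtubules, rose by 3.63 (SE 0.15) and was higher in all 3 of its probe sets, the smallest rise being 1.12. SYT1, the calcium sensor of vesicle exocytosis, rose by 3.35 in 1 probe set and 2.45 in the other. SDC4, a heparan sulfate proteoglycan of focal adhesions, rose by 2.77 (SE 0.09). The extracellular protease gene ADAMTS15 rose by 3.31 and the protease inhibitor SERPINE2 by 2.56, but their other probe sets, at -0.03 and -0.17, were not called. MARCKS, a membrane-bound substrate of protein kinase C, rose by 2.57 in the probe set used and in 1 of its 4 others. CAVIN2, a coat protein of caveolae, rose by 3.26 in 1 probe set and 1.90 in the other, while the caveolar protein gene PACSIN3 fell by 0.41. ERVFRD-1, the envelope gene of an endogenous retrovirus that acts in the fusion of placental cells, rose by 5.12 (SE 0.07, adjusted p = 1.6e-08).

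**Figure D2:**
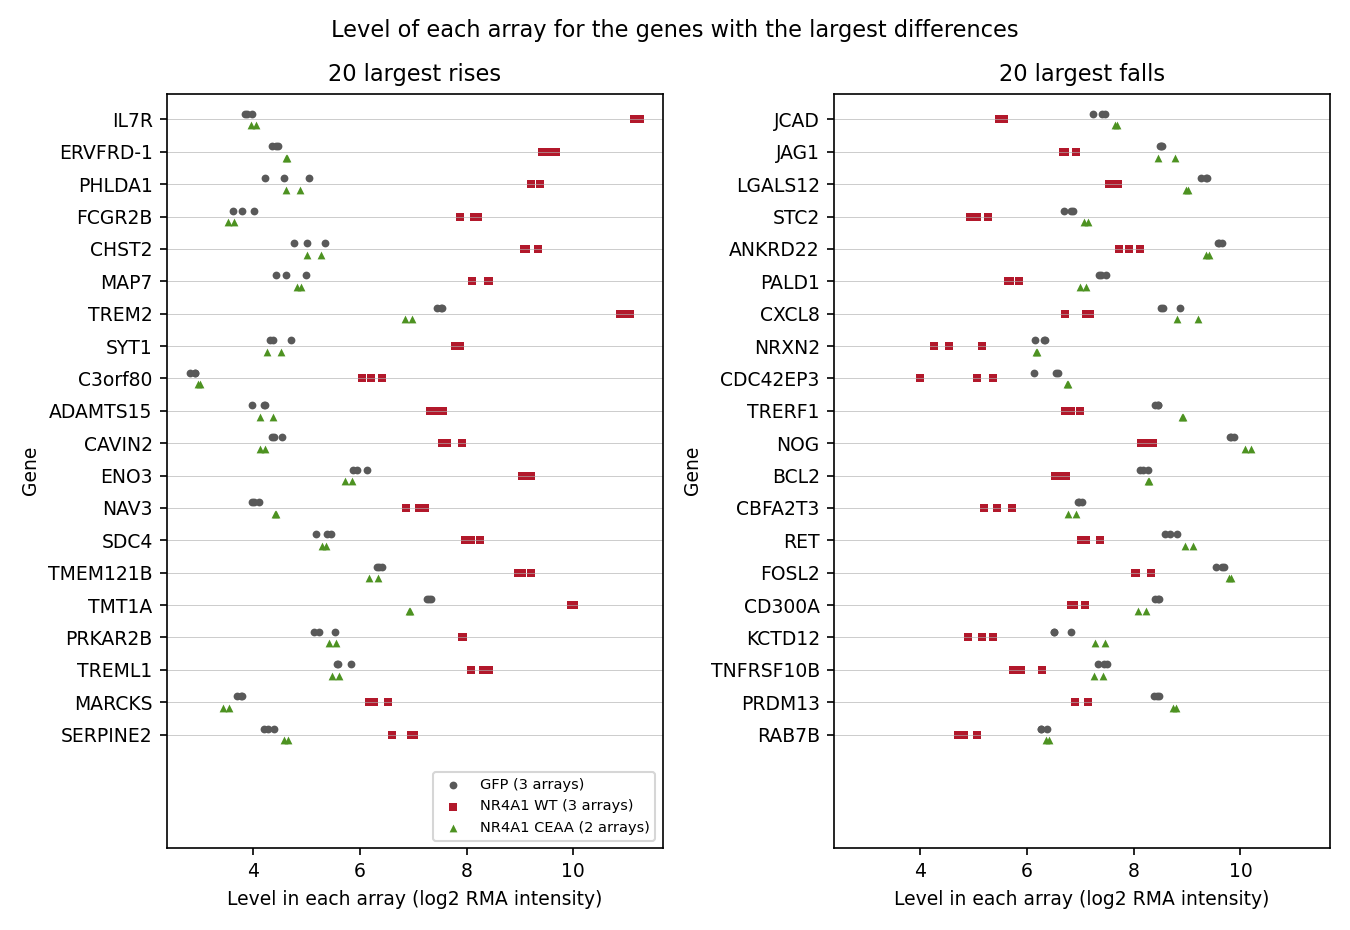
Level in each of the 8 arrays (log2 RMA intensity, horizontal axis) for the 20 genes with the largest rises and the 20 with the largest falls against GFP, 1 point per array, with gray circles for GFP, red squares for NR4A1 WT and green triangles for NR4A1 CEAA. In every gene shown the 3 NR4A1 WT arrays lie apart from the 3 GFP arrays, as the choice of these genes required.

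Fc and TREM receptors of the innate immune system signal through adaptors with immunoreceptor tyrosine-based motifs. Of 22 measured receptors and adaptors of this kind, 4 were higher and 4 lower (18.2% each, median log2 difference -0.04), and without GFP replicate 1 the lower ones numbered 2. Counts of this list and of those below stand against 9.97% higher and 10.3% lower among all genes. TREM2, a lipid-sensing receptor of macrophages, read 7.53, 7.45 and 7.55 with GFP and 10.87, 11.03 and 11.06 with NR4A1 WT, a log2 difference of 3.48 (SE 0.07, adjusted p = 1.26e-07). With NR4A1 CEAA it read 6.84 and 6.98, below all GFP arrays, and NR4A1 WT and NR4A1 CEAA differed by 4.08 (adjusted p = 8.58e-08). Its platelet relative TREML1 rose by 2.60 (SE 0.10, adjusted p = 2.43e-06). FCGR2B, the inhibitory receptor for immunoglobulin G, rose by 4.26 (SE 0.12) and FCGR2C by 1.63, but these genes are nearly identical over much of their length, so their probe sets may not tell them apart. CLEC5A, a C-type lectin receptor of myeloid cells, fell by 0.83 (SE 0.06). CD300A, an inhibitory receptor of myeloid cells outside this list, fell 2.84-fold and was among the 20 largest falls.

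Cytokine receptors were more often higher than lower, with 9 of 34 higher and 4 lower against a background of 9.97% and 10.3%. Beside IL7R, the higher ones included IL17RA (1.10, SE 0.06, 3 of 4 probe sets), the shared beta chain CSF2RB of the interleukin 3, interleukin 5 and GM-CSF receptors (0.78, SE 0.05). The ligand gene TSLP, which acts through IL7R and a second chain, was counted with them and rose by 1.26 (SE 0.13, adjusted p = 0.000385). The lower ones included IL6R, which read 7.12, 7.33 and 7.12 with GFP and 5.96, 5.94 and 5.65 with NR4A1 WT, and IL3RA, the binding chain for interleukin 3, at -0.82 (SE 0.09). So the beta chain and the alpha chain of the interleukin 3 receptor moved in opposite directions. Of 21 genes for JAK kinases, STAT factors and their inhibitors, 5 were higher and 2 lower (1 lower without any 1 GFP array, either NR4A1 CEAA array or NR4A1 WT replicate 3), among them STAT5A, a transducer of interleukin 7 signals, which went from 9.37, 9.44 and 9.39 to 10.39, 10.29 and 10.22 (log2 difference 0.90, SE 0.06), and JAK1 at 0.63. CISH, a feedback inhibitor that STAT5 is known to induce, fell by 0.75 in the probe set used and was lower in all 3.

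Among receptor tyrosine kinases 2 of 37 were higher (5.41%) and 4 lower (10.8%), with 1 higher without GFP replicate 2 or 3 or NR4A1 WT replicate 2 or 3. FLT3, a receptor of early lymphoid and myeloid progenitors, read 6.64, 6.42 and 6.77 with GFP and 7.70, 7.84 and 7.87 with NR4A1 WT, a log2 difference of 1.19 (SE 0.09, adjusted p = 7.39e-05). It stood at 7.11 and 7.16 with NR4A1 CEAA, between the other groups, and NR4A1 WT was higher than NR4A1 CEAA by 0.67 (adjusted p = 0.00161). CSF1R, the receptor for the macrophage growth factor, fell from 6.05, 6.07 and 6.16 to 5.38, 5.33 and 5.52. RET, best known for its role in the enteric nervous system, fell by 1.53 (SE 0.10, adjusted p = 3.36e-05) with all 3 of its probe sets lower, although the smallest of these falls was 0.36. Of 33 protein tyrosine phosphatases, which oppose such kinases, 8 were higher (24.2%) and 2 lower (6.06%). PTPN13 (2.02, SE 0.10) and PTPRB (1.70, SE 0.15) led the rises, and PTPRE fell by 1.17. The other probe set of PTPN13, at 0.15, was not called, and neither were the others of PTPRE. Among 24 feedback inhibitors of MAP kinase signaling 5 were higher (20.8%) and 3 lower (12.5%), with SPRY2 (0.85) and DUSP5 (0.79) higher. The largest change in this list was the fall of DUSP2 (-1.0), and DUSP7 (-0.59) fell too.

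Of 39 nuclear receptors, the NR4A genes included, 4 were higher (10.3%) and 5 lower (12.8%), near the 9.97% and 10.3% of all genes. NR0B2 (SHP), a receptor without a DNA binding domain that represses other receptors, read 5.45, 5.02 and 5.38 with GFP and 7.36, 7.74 and 7.59 with NR4A1 WT, a 4.85-fold rise (SE 0.13 on the log2 scale, adjusted p = 1.59e-05). The 2 corticosteroid receptors both rose, the mineralocorticoid receptor NR3C2 by 1.19 (SE 0.09) and the glucocorticoid receptor NR3C1 by 0.83 (SE 0.06), the latter in all 5 of its probe sets with rises of 0.77 to 0.91. VDR, the vitamin D receptor and a driver of monocyte differentiation, fell by 1.10 (SE 0.06, adjusted p = 1.3e-05), and 1 of its 3 other probe sets fell. The corepressors NRIP1 and LCOR, which bind ligand-loaded receptors, rose by 1.00 and 0.89, each in both of its probe sets. NR4A1 itself read 6.58, 6.50 and 6.28 with GFP and 6.47, 6.61 and 6.53 with NR4A1 WT and was not called (adjusted p = 0.572). It is unknown whether these probe sets detect the transcript made in vitro, and this level therefore checks nothing about the labels.

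Transcription factors of myeloid cells were lower more often than higher. Of 24 measured, 12 were lower and 5 higher, and the median log2 difference was -0.26 against 0.00 for all genes. The higher ones were GFI1 (0.25), EGR1 (0.32), ID2, ID3 and CBFA2T2 (0.27), the last of the ETO family. ID1 was among the lower ones. At an adjusted p under 0.01 in limma, 3 members were higher and 11 lower. SPI1 (PU.1), the ETS factor that directs myeloid fate, read 6.81, 6.84 and 6.89 with GFP and 6.01, 5.72 and 5.89 with NR4A1 WT (log2 difference -0.97, SE 0.08, adjusted p = 7.73e-05). CBFA2T3, a corepressor of the ETO family, fell from 6.96, 6.98 and 7.03 to 5.72, 5.45 and 5.20 (log2 difference -1.54, SE 0.12). Its relative RUNX1T1, the ETO part of the fusion gene in this line, fell by 0.36. The C/EBP factors CEBPA, CEBPD and CEBPE, which act in granulocyte development, fell by 0.55, 0.65 and 0.67, as did IRF8, which acts in monocytes and dendritic cells, by 0.76. SPI1 was lower with NR4A1 CEAA too, by 0.55 (adjusted p = 0.00458), and lower still with NR4A1 WT in the direct comparison (-0.43, adjusted p = 0.00569). IRF8, by contrast, was higher with NR4A1 CEAA than with GFP, by 0.31 (adjusted p = 0.0287).

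The ID genes, whose proteins block basic helix-loop-helix factors such as the E proteins, split. ID3 read 5.21, 5.49 and 5.03 with GFP and 7.45, 7.63 and 7.50 with NR4A1 WT, a 4.86-fold rise (adjusted p = 8.36e-06), and ID2 rose 2.10-fold in the probe set used and was higher in its other one. ID1 fell 1.97-fold, from 7.94, 7.86 and 8.0 to 6.70, 7.08 and 7.08. With NR4A1 CEAA, ID1 read 6.97 and 7.18, and the direct difference for it was -0.12 (adjusted p = 0.531), whereas ID3 differed between NR4A1 WT and NR4A1 CEAA by 2.85 (adjusted p = 6.1e-06).

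Of 26 lymphoid transcription factors 4 were higher (15.4%) and 7 lower (26.9%). BCL6, the germinal center repressor, read 5.48, 5.25 and 5.21 with GFP and 6.66, 6.69 and 6.73 with NR4A1 WT (log2 difference 1.38, SE 0.08) and none of its 2 other probe sets was called. FOXO1, a regulator of lymphoid genes, rose by 0.90 in 2 of 3 probe sets. The E protein gene TCF3 fell by 0.56, SOX4 by 0.78 and NFATC2 by 0.76, but most other probe sets of TCF3 were not called. The 16 stem cell, erythroid and megakaryocytic factors counted 2 higher and 5 lower. GATA2, a factor of stem and progenitor cells, rose by 0.95 (SE 0.07), while MYB, which keeps progenitors dividing, fell from 12.08 in each GFP array to 11.33, 11.10 and 11.23, and LMO2 fell by 0.74. ERG and ETV6, ETS factors of stem cells, fell by 0.59 and 0.46, each in 3 of its probe sets. ETV5 rose by 0.86, though none of its other probe sets was called. FLI1, another ETS factor, stood at 0.11 (adjusted p = 0.475).

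MYC, the growth-promoting transcription factor, read 11.52, 11.59 and 11.55 with GFP and 10.24, 10.23 and 10.18 with NR4A1 WT, a 2.52-fold fall (SE 0.05 on the log2 scale, adjusted p = 1.7e-06). With NR4A1 CEAA it read 12.11 and 12.14, above all GFP arrays, and the direct difference between NR4A1 WT and NR4A1 CEAA was -1.91 (adjusted p = 9.11e-07). Its network partners MXI1 and MNT, which pair with MAX and repress, fell by 0.37 and 0.70. Since MYC is known to bind the E-box CACGTG, these letters were also counted in the promoter windows, a search added after the values were seen. The E-box stood in 14.1% of the windows of genes lower by at least 1.5-fold, 5.95% of those of genes higher by at least 1.5-fold and 8.36% of those of all genes tested. The windows of the lower genes were also richer in G and C, with a median of 66.0% against 62.7% for all genes tested and for the higher genes, and the part of base composition in the E-box share was not tested. An ETS element, CCGGAAGT, was searched too. It stood in 3.8% of the windows of genes higher and 3.33% of those lower by at least 1.5-fold. At any fold it stood in 7.43% and 4.97%, against 5.4% for all genes tested. These ETS shares were not tested and say nothing about distal sites.

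**Figure D3:**
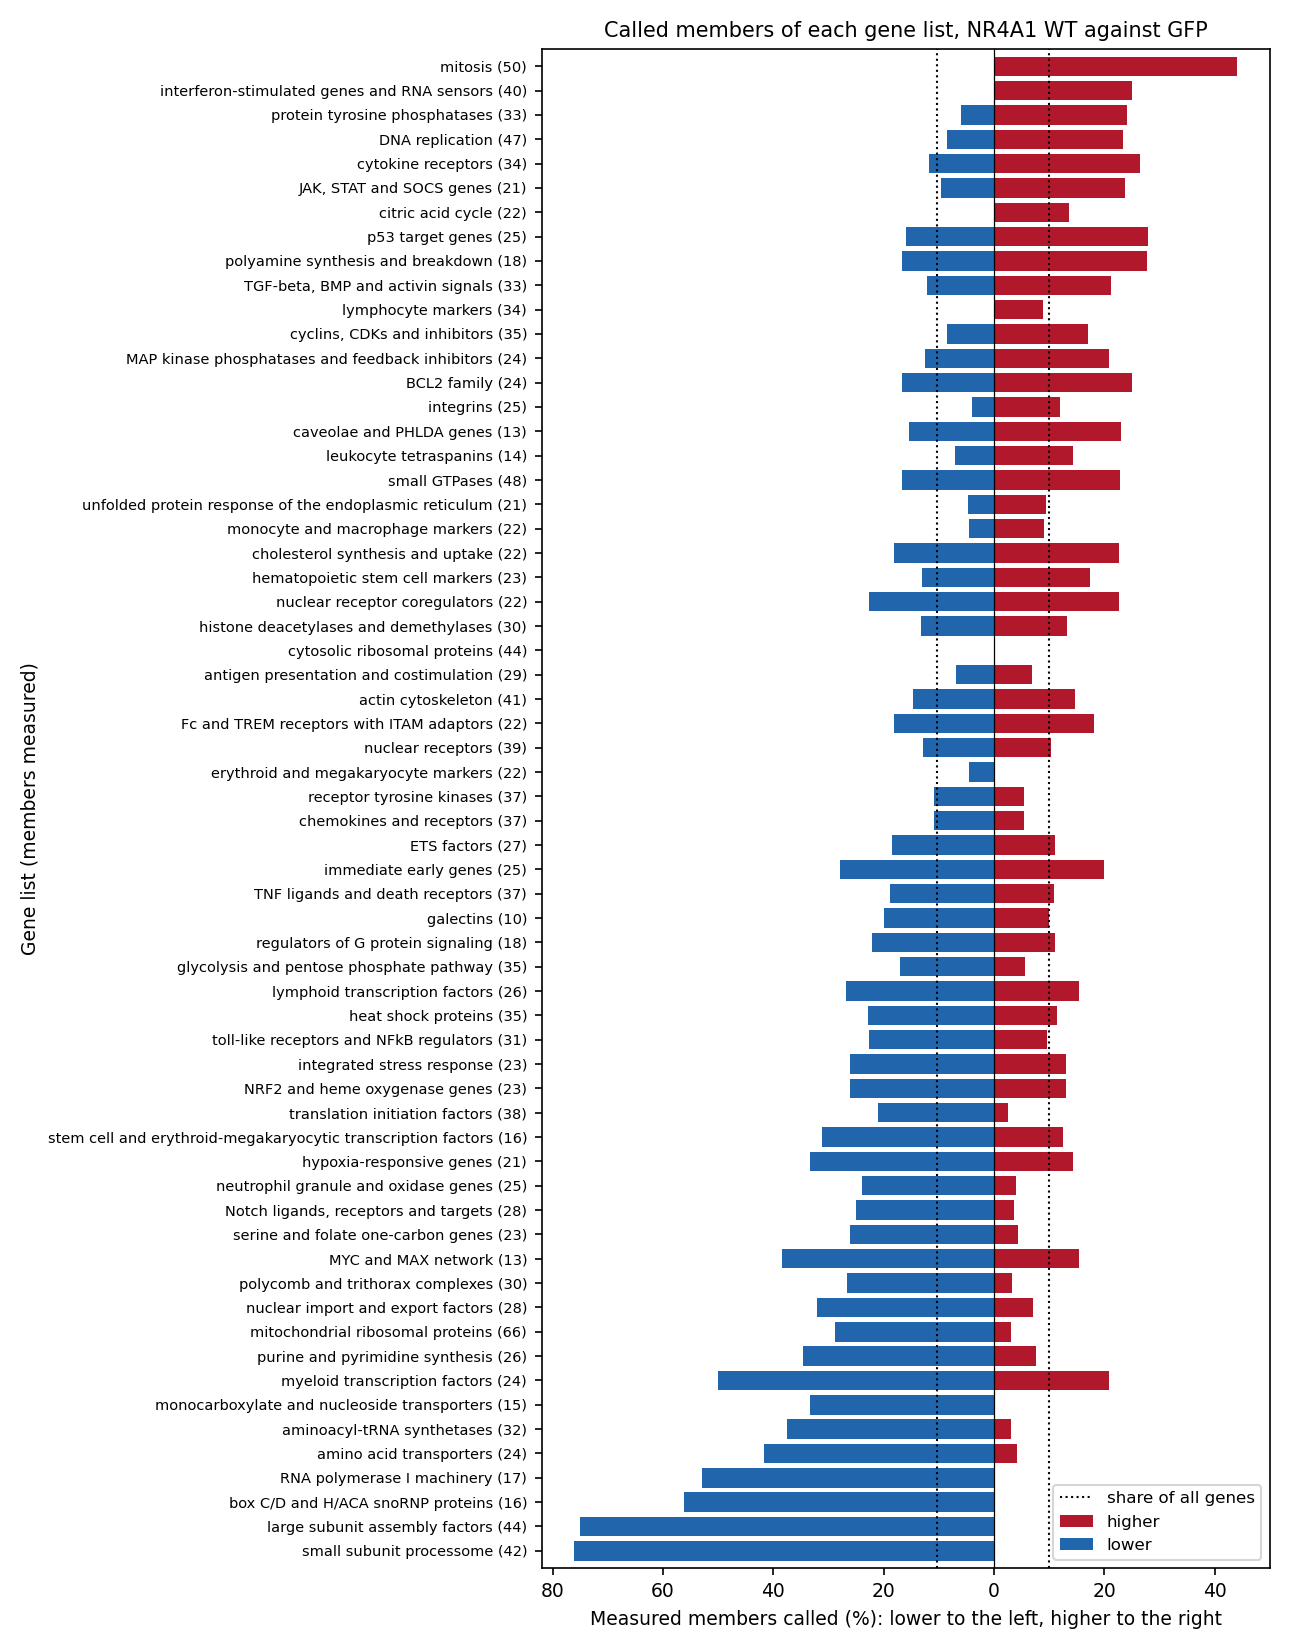
Share of the measured members of 62 gene lists that were called (%, horizontal axis), with lower members drawn to the left in blue and higher members to the right in red, sorted by the difference of both shares, and the number of members measured in parentheses. The dotted lines mark the shares among all genes tested, 10.3% lower and 9.97% higher. The lists of ribosome assembly stand at the bottom, with 76.2% of the small subunit processome list lower, and mitosis at the top, with 44.0% higher.

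Genes that build ribosomes fell together, by small amounts. The small subunit processome is the complex that folds and cuts the precursor of the small subunit RNA, and its list also holds factors of later small subunit assembly. Of 42 measured genes in this list 32 were lower and 0 higher (limma), and the median log2 difference was -0.34. At an unadjusted p under 0.05, 38 were lower and 1 higher, and Rank Product found 7 lower and 0 higher. Of 44 assembly factors of the large subunit 33 were lower and 0 higher, also with a median of -0.34 (38 and 0 at an unadjusted p under 0.05, 9 and 0 by Rank Product). Of 16 proteins of the box C/D and H/ACA particles, which modify ribosomal RNA, 9 were lower and 0 higher (11 and 0 unadjusted, 1 and 0 by Rank Product). Of 17 genes of the RNA polymerase I machinery, which transcribes ribosomal RNA, 9 were lower and 0 higher, with a median of -0.24.

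Members of each step fell to different degrees. The polymerase subunit POLR1G read 8.56, 8.69 and 8.74 with GFP and 7.58, 7.29 and 7.42 with NR4A1 WT, a 2.35-fold fall (SE 0.08 on the log2 scale, adjusted p = 3.38e-05), and was at 8.78 and 8.80 with NR4A1 CEAA. Other members of the machinery that fell were POLR1B (-1.07, 2 of its 3 other probe sets lower) and POLR1C (-0.48). In the processome list RIOK1, an atypical kinase of late small subunit maturation, fell by 0.78 (SE 0.05), WDR3 by 0.85 and TSR1 by 0.67, TSR1 in 3 of its 4 probe sets. Of the large subunit factors NOP16 went from 11.33, 11.30 and 11.30 to 10.20, 10.18 and 10.16. NIP7 fell by 0.80, URB2 by 0.78, MAK16 by 0.75 and WDR12 by 0.54, WDR12 in all 3 of its probe sets. NOLC1, a nucleolar chaperone of the box C/D and H/ACA particles, went from 12.26, 12.32 and 12.28 to 11.62, 11.51 and 11.50 and was lower in all 3 of its probe sets.

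Genes for the structural proteins of the cytosolic ribosome were not called. Of 44 measured genes 0 were higher and 0 lower by limma, 0 passed at an unadjusted p under 0.05 and 0 by Rank Product, and their log2 differences ran from -0.03 to 0.04. Their median level with GFP was 14.35 on a scale whose highest value in any array was 14.97, where the response of an array can be compressed, and this was not tested. RNA45SN5, a gene for the precursor of ribosomal RNA, was read by 2 probe sets and named after its values were seen. Its signal was higher, at 9.31, 8.92 and 9.15 with GFP and 11.30, 11.52 and 11.40 with NR4A1 WT, a log2 difference of 2.28 (SE 0.11, adjusted p = 6.29e-06). The other probe set of RNA45SN5 rose by 2.10. With NR4A1 CEAA this signal was lower than with GFP, by 0.88 (adjusted p = 0.00295). RNA45SN5 is 1 of several near-identical copies, which the probe sets may not tell apart, and how much of its transcript is labeled by this method was not tested. Whether these probe sets read only the precursor, or also the mature ribosomal RNA cut from it, is unknown.

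**Figure D4:**
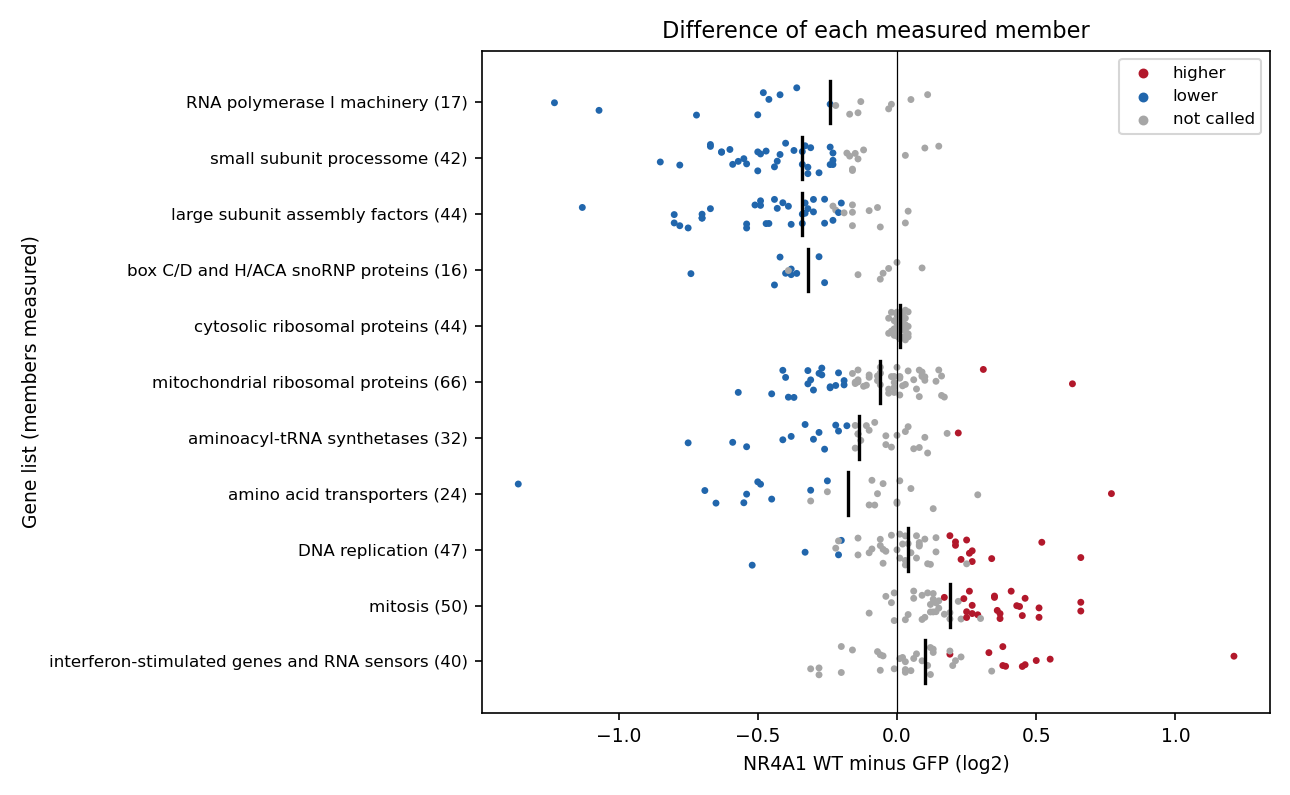
Difference between NR4A1 WT and GFP (log2, horizontal axis) of each measured member of 11 gene lists, 1 point per gene, red where called higher, blue where called lower and gray where not called, with the list's median as a black bar. The median is -0.34 for both subunit assembly lists, 0.01 for the cytosolic ribosomal proteins, whose points lie between -0.03 and 0.04, and 0.19 for mitosis.

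Of 24 amino acid transporters 10 were lower and 1 higher, with a median of -0.18. SLC7A5, the large neutral amino acid transporter, read 9.46, 9.47 and 9.56 with GFP and 8.10, 8.12 and 8.18 with NR4A1 WT, a 2.57-fold fall (SE 0.05 on the log2 scale, adjusted p = 2.15e-06), and stood at 9.48 and 9.49 with NR4A1 CEAA. The glutamine transporter SLC1A5 fell by 0.69 and the cationic transporter SLC7A1 by 0.55, while SLC38A1 rose by 0.77. Of 32 aminoacyl-tRNA synthetases 12 were lower and 1 higher, the largest falls being those of the mitochondrial enzymes MARS2 (-0.75) and EARS2 (-0.59), and without GFP replicate 2 the lower ones numbered 7. Mitochondrial ribosomal proteins counted 19 lower and 2 higher of 66, with MRPS26 at -0.57 and MRPS35, one of the higher ones, at 0.63, and 11 were lower without GFP replicate 3 and 12 without GFP replicate 1. In purine and pyrimidine synthesis 9 of 26 were lower and 2 higher (0 or 1 higher without any 1 array other than NR4A1 WT replicate 3), led by PPAT, the first committed enzyme of purine synthesis (-0.70), and DHODH of the pyrimidine pathway (-0.66). One of the 3 probe sets of PPAT was called higher. In polyamine metabolism the synthetic enzymes ODC1, AMD1 and SRM fell by 0.48, 0.56 and 0.39, whereas SAT1, which starts polyamine breakdown, rose by 0.65 in a list with 5 of 18 higher and 3 lower. Without GFP replicate 2 or 3 or NR4A1 WT replicate 1 or 2, 3 of them were higher.

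In glycolysis and the pentose phosphate pathway 2 of 35 genes were higher and 6 lower, against 9.97% and 10.3% of all genes. The higher ones were the muscle enzymes ENO3 and PFKM. PFKM, the muscle phosphofructokinase, read 5.15, 5.37 and 5.12 with GFP and 7.34, 7.01 and 7.24 with NR4A1 WT, a 3.97-fold rise (adjusted p = 9.03e-06). The lower ones included hexokinase HK2 (-0.64, all 3 probe sets), PDK1 (-0.60) and PFKFB3 (-0.43). In the list for the citric acid cycle 3 of 22 were higher and 0 lower (6 and 1 at an unadjusted p under 0.05, 1 and 0 by Rank Product), and 1 was higher without any 1 GFP array. Its largest rise was that of IDH1 (1.07, SE 0.06), a cytosolic isocitrate dehydrogenase that the list counts although the cycle itself is mitochondrial. In cholesterol metabolism 5 of 22 were higher and 4 lower, and 2 were lower without GFP replicate 1 or 3 or NR4A1 WT replicate 2 or 3. The sterol carrier STARD4 rose 3.01-fold, from 7.30, 7.40 and 7.46 to 8.93, 9.0 and 8.99, and INSIG2, which holds back sterol synthesis, rose by 0.85, but its relative INSIG1 fell by 0.45 and the synthetic enzyme DHCR7 by 0.54.

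Of 50 measured genes of mitosis 22 were higher and 0 lower (limma), and the median log2 difference was 0.19. At an unadjusted p under 0.05, 32 were higher and 0 lower, but by Rank Product 2 were higher and 0 lower, and 2 reached a 1.5-fold rise. The kinetochore motor CENPE read 8.79, 8.84 and 8.86 with GFP and 9.51, 9.44 and 9.52 with NR4A1 WT, a 1.58-fold rise (SE 0.05 on the log2 scale, adjusted p = 6.03e-05). CENPI rose by 0.66, the kinesin KIF20A and the condensin subunit NCAPG by 0.51 each. The phosphatase CDC25C, which starts mitosis, rose by 0.81 and cyclin B2 (CCNB2) by 0.54, in a list of cyclins and their kinases with 6 of 35 higher and 3 lower. None of the other probe sets of CDC25C or CCNB2 was called. The centrosomal protein CEP70, not in these lists, rose 4.14-fold and was higher in all 5 of its probe sets, with rises of 0.70 to 2.05. Of 47 DNA replication genes 11 were higher and 4 lower, including CLSPN (0.66), a checkpoint adaptor, CDC6 (0.52), which loads the helicase, and POLE, the catalytic subunit of a replicative polymerase (-0.52). The other probe sets of CLSPN were not called. Without GFP replicate 2 the higher DNA replication genes numbered 6, and without GFP replicate 1, GFP replicate 3 or NR4A1 WT replicate 2 they numbered 7, and without GFP replicate 3 the lower ones numbered 2.

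BCL2, which protects cells, read 8.12, 8.27 and 8.18 with GFP and 6.59, 6.53 and 6.73 with NR4A1 WT, a 2.97-fold fall (SE 0.07 on the log2 scale, adjusted p = 3.76e-06), and 1 of its 3 other probe sets fell. BCL2A1, another protective member, went the other way, from 7.65, 7.58 and 7.32 to 9.42, 9.65 and 9.24, a 3.78-fold rise (adjusted p = 2.46e-05). The BH3-only gene BIK, which promotes death, rose 2.66-fold, and in all 6 of 24 members of the family were higher and 4 lower. The lower ones numbered 2 without any 1 GFP array or without NR4A1 WT replicate 3. Among 37 TNF ligands, death receptors and their partners 4 were higher (10.8%) and 7 lower (18.9%), with 7 higher without NR4A1 WT replicate 2. The ligand gene TNFSF10 (TRAIL) rose by 1.58, from a level under the array medians, while its receptor gene TNFRSF10A fell from 7.71, 8.02 and 7.84 to 6.98, 6.97 and 6.79, in all 3 of its probe sets. The other receptor, TNFRSF10B, fell by 1.45 in the probe set used and had no call in its 3 others. TNFRSF21, another death receptor, fell by 0.94 in the probe set used and was lower in its other one. Of 25 genes that p53 is known to activate 7 were higher and 4 lower, with TIGAR (0.83) and CCNG1 (0.54) among the higher and GADD45A (-0.62) among the lower.

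The largest falls came from a mixed group of genes. JCAD, a protein of endothelial junctions, read 7.24, 7.47 and 7.41 with GFP and 5.54, 5.48 and 5.57 with NR4A1 WT, a log2 difference of -1.84 (SE 0.07, adjusted p = 1.88e-06), with all 3 probe sets lower. JAG1, a ligand of Notch receptors, read 8.50, 8.53 and 8.51 with GFP and 6.93, 6.67 and 6.71 with NR4A1 WT, and 3 of its 5 other probe sets fell, 1 of them by 2.01. In the Notch list 7 of 28 were lower and 1 higher (0 higher without GFP replicate 1 and 2 without NR4A1 WT replicate 1), among them NRARP, a feedback inhibitor of the pathway (-1.02, SE 0.08), and the ligand gene JAG2 (-0.47). LGALS12, a galectin of myeloid and fat cells, fell by 1.73 (SE 0.06), and the secreted glycoprotein STC2 by 1.70 (SE 0.09) in a list of ATF4 target genes with 6 of 23 lower and 3 higher. CXCL8, the neutrophil chemokine, read 8.86, 8.52 and 8.55 with GFP and 7.10, 7.18 and 6.71 with NR4A1 WT, and both of its probe sets were lower. NRXN2 and CDC42EP3 had more spread with NR4A1 WT than the other large falls, CDC42EP3 with 5.06, 5.36 and 4.01 (SE 0.31, adjusted p = 0.00735). ARRB1, which ends signaling of G protein coupled receptors, fell by 0.91 and was lower in all 7 of its probe sets.

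Immediate early genes, which cells switch on within minutes of a stimulus, counted 5 higher and 7 lower of 25. Without any 1 GFP array or without NR4A1 WT replicate 1 or 3, 3 of them were higher, and without GFP replicate 3, 4 were lower. JUN rose by 0.78 in the probe set used and was higher in all 4, while FOSL2, its partner in AP-1, fell from 9.69, 9.66 and 9.55 to 8.32, 8.02 and 8.05. In TGF-beta, BMP and activin signaling 7 of 33 were higher and 4 lower. TGFB1 read 9.12, 9.08 and 9.07 with GFP and 9.98, 10.27 and 10.16 with NR4A1 WT, although its other probe set stood at 0.00, and the inhibitory SMAD7 rose by 1.08 (SE 0.06). Both were lower with NR4A1 CEAA than with GFP, by 0.56 (adjusted p = 0.00374) and 0.33 (adjusted p = 0.0137). NOG, the secreted antagonist of BMPs, fell by 1.59 (SE 0.07, adjusted p = 3.8e-06), and the coreceptor ENG by 0.60.

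Among 31 toll-like receptor and NFkB genes 3 were higher and 7 lower. The NFkB subunit REL rose by 1.09 (SE 0.07), with 3 of its 5 probe sets higher, whereas the toll-like receptor kinases IRAK1 and IRAK3 fell by 0.51 and 1.11. Interferon-stimulated genes and RNA sensors counted 10 of 40 higher and 0 lower (limma), with 12 higher and 3 lower at an unadjusted p under 0.05 and 1 and 0 by Rank Product. OAS1, which senses double-stranded RNA, read 5.58, 5.23 and 5.06 with GFP and 6.46, 6.60 and 6.46 with NR4A1 WT (log2 difference 1.21, SE 0.13, adjusted p = 0.000438), and both of its probe sets were higher. The interferon regulatory factors IRF1 and IRF7 rose by 0.46 and 0.45, whereas with NR4A1 CEAA they were lower than with GFP, by 0.30 (adjusted p = 0.0374) and 0.33 (adjusted p = 0.0169). The other probe set of IRF1 rose by 0.59 with NR4A1 WT. It read 8.38 and 8.39 with NR4A1 CEAA, close to the 8.43, 8.50 and 8.54 with GFP. All groups had received IVT-RNA.

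CD83, a marker of mature dendritic cells, read 7.87, 7.84 and 7.88 with GFP and 9.90, 9.91 and 9.91 with NR4A1 WT, a 4.13-fold rise (SE 0.04 on the log2 scale, adjusted p = 2.01e-07) in a list of 29 antigen presentation genes with 2 higher and 2 lower, against 9.97% and 10.3% of all genes. Without GFP replicate 2 or NR4A1 WT replicate 3, 1 was lower. Of 34 lymphocyte markers 3 were higher, the largest of them IL7R, and 0 lower, with 3 and 1 at an unadjusted p under 0.05 and 1 and 0 by Rank Product. Without GFP replicate 1 or 2, 1 was higher. Of 25 neutrophil granule and oxidase genes 6 were lower and 1 higher, with the serine proteases ELANE and CTSG at -0.47 and -0.34 and the collagenase MMP8, from a dim level, at 1.20. The other probe set of MMP8, at 0.26, was not called. Of the 11 lymphocyte differentiation genes that the study listed from these arrays 9 were higher, and of its 17 proliferation genes 15 were measured here, 15 of them lower. Since they were listed for their change in these samples, these counts are no independent evidence of a direction.

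Some genes that fell with NR4A1 WT were also lower with NR4A1 CEAA than with GFP. Those given here are examples, and the share of all lower genes that did so was not counted. Beside ID1, CEBPA and CEBPE were lower with NR4A1 CEAA by 0.40 (adjusted p = 0.00647) and 0.58 (adjusted p = 0.00464), and the direct differences for them were -0.15 (adjusted p = 0.151) and -0.08 (adjusted p = 0.549). In the probe set used, the polymerase subunit POLR1C was at -0.49 with NR4A1 CEAA (adjusted p = 0.00174), with a direct difference of 0.01 (adjusted p = 0.912). Its other probe set did not share this. That one read 8.63, 8.71 and 8.65 with GFP, 8.15, 8.09 and 8.10 with NR4A1 WT, and 8.58 and 8.63 with NR4A1 CEAA. SLC1A5 was at -0.67 (adjusted p = 0.000812) with a direct difference of -0.02 (adjusted p = 0.85), and CTSG at -0.32 (adjusted p = 0.0185) with one of -0.01 (adjusted p = 0.912). A p above the threshold does not show that these genes were equal in both groups. Both comparisons share the 3 GFP arrays.

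Among factors that carry cargo through nuclear pores 9 of 28 were lower and 2 higher, led by XPO5, the export receptor of microRNA precursors (-0.55). Of 30 genes of the polycomb and trithorax complexes 8 were lower and 1 higher, with CBX6 at -0.66 and the methyltransferase subunit ASH2L at 0.37. Without GFP replicate 2 only 4 of these were lower, and without either other GFP array 5. Translation initiation factors counted 8 lower and 1 higher of 38 (5 lower without GFP replicate 2 or 3), with the regulator EIF4EBP1 at -0.46, and serine and folate genes 6 lower and 1 higher of 23, with the folate carrier SLC19A1 at -0.87. Of 15 monocarboxylate and nucleoside transporters 5 were lower and 0 higher by limma (6 and 1 at an unadjusted p under 0.05, 3 and 0 by Rank Product), with SLC16A9 at -1.22. SLC16A7 fell by 0.81 and was higher with NR4A1 CEAA than with GFP, by 0.80.

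In the MYC and MAX network 5 of 13 were lower and 2 higher, with 0 or 1 higher without any 1 array other than NR4A1 WT replicate 3. Heat shock proteins counted 8 lower and 4 higher of 35 (5 lower without any 1 GFP array or without NR4A1 WT replicate 1 or 3), oxidative stress genes of the NRF2 pathway 6 and 3 of 23, with heme oxygenase HMOX1 at -0.75, and hypoxia-responsive genes 7 and 3 of 21, with DDIT4 at -0.57 and VEGFA at 0.35. The unfolded protein response held 1 lower, XBP1 (-0.48), and 2 higher of 21. Of 48 small GTPases 11 were higher and 8 lower, with RAB27B of vesicle release at 1.31 and RAC3 at -0.57, and without GFP replicate 2 the counts were 7 and 5, and without GFP replicate 3 the lower ones numbered 5. Of 41 actin cytoskeleton genes 6 were higher and 6 lower. Without GFP replicate 1, 2 of them were higher, and without GFP replicate 2 or 3 or NR4A1 WT replicate 2 or 3, 3 were. The focal adhesion protein gene ZYX fell by 0.86.

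Among chemokines and their receptors 2 of 37 were higher and 4 lower, among integrins 3 of 25 and 1, among tetraspanins 2 of 14 and 1, with TSPAN5 at 1.41, and among regulators of G protein signaling 2 of 18 and 4, with RGS2 at 0.94. Galectins counted 1 higher, LGALS8 (0.83), and 2 lower of 10. Histone deacetylases and demethylases counted 4 of 30 (13.3%) in each direction, with HDAC9 at 1.01, though none of its other probe sets was called. Nuclear receptor coregulators counted 5 of 22 (22.7%) in each direction, with PPARGC1B at -0.66. Of 23 hematopoietic stem cell markers 4 were higher and 3 lower, with MLLT3 at 1.03 and HLF at -0.82, and of 22 monocyte and macrophage markers 2 were higher and 1 lower. HLF was not called in its other probe sets. Of 13 caveolar and PHLDA genes 3 were higher and 2 lower, and of 27 ETS factors 3 and 5. Erythroid and megakaryocyte markers counted 1 lower and 0 higher of 22 by limma, with 4 and 0 at an unadjusted p under 0.05 and 0 and 0 by Rank Product. Leaving out single arrays moved several of these small counts. The higher integrins numbered 1 without any 1 GFP array, either NR4A1 CEAA array or NR4A1 WT replicate 3, the lower histone deacetylases and demethylases 2 without GFP replicate 3, and the higher regulators of G protein signaling 4 without GFP replicate 3.

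The labelled cell type was checked on its markers. All 9 measured markers of myeloid progenitors and of this line lay above the array medians in all 6 arrays, with MPO, the granule peroxidase, at 14.34 to 14.43 and the stem cell factor receptor KIT at 13.45 to 13.55. Of the 9, CD34 and CD38 rose by 0.28 and 0.37, and RUNX1T1, ELANE, PRTN3 and SPI1 fell. Some markers of other blood cells were dim, with CD3G (3.82 to 4.22) and CD2 (3.52 to 3.80) of T cells, MS4A1 (3.75 to 3.97) of B cells, KLRD1 (3.67 to 4.30) of natural killer cells and CD14 (3.57 to 4.32) of monocytes under the array medians in all 6 arrays. Other markers, no less typical of these cells, lay above every array median. They were 3 of 6 for T cells (CD3D at 5.07 to 5.38, CD8A and CD5) and 2 of 4 for B cells (CD79A, and CD79B at 6.74 to 7.32). They were 1 of 4 for natural killer cells (NCR1), 3 of 5 for erythroid cells and 3 of 5 for megakaryocytes. The epithelial marker EPCAM was bright (11.43 to 11.69). The summed log2 levels of 6 T cell markers ran from 29.4 to 29.5 with GFP and from 28.4 to 29.6 with NR4A1 WT, and those of 4 B cell markers from 21.2 to 21.7 and from 21.0 to 21.7. None of the T cell, natural killer cell or megakaryocyte markers was called, and the monocyte and dendritic cell list held 1 that rose, CD1C, by 0.89. The B cell marker CD79B was higher by 0.38 (adjusted p = 0.0173) and the fibroblast marker PDGFRA by 0.58 (adjusted p = 0.026), with summed levels of 4 fibroblast markers of 21.3 to 21.9 with GFP and 21.8 to 23.0 with NR4A1 WT. The erythroid marker KLF1 was at -0.38 (adjusted p = 0.0313) and EPCAM at -0.19 (adjusted p = 0.0382). The part of other cells in the results was not tested beyond these values.

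How far a call holds over a gene's probe sets was counted for genes with more than 1. The 316 such genes that were higher by at least 1.5-fold had 691 other probe sets, of which 274 (39.7%) were called the same way, 2 the opposite way and 415 not at all, against a share of 5.91% of all probe sets with 1 symbol that were called higher. The 272 such genes that were lower by at least 1.5-fold had 571 others, of which 219 (38.4%) were lower and 2 higher, against 6.45%. Probe sets of a gene read the same arrays and were not taken as replicates. For single genes named above, the other probe sets are given in some cases only.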

How the data were processed

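RNA of 8 Kasumi-1 samples, taken 6 h after electroporation, had been hybridized to Affymetrix U133 Plus 2.0 arrays. The deposited values are log2 intensities that the authors made from the array scans by RMA, per the labels with RMA Express (version not given in the sources used here), so the arrays were already quantile normalized. Depth does not apply to arrays, and their number limits the precision. Of 54613 probe sets, 41091 had 1 symbol, 1801 several and 11721 none in the platform annotation, and each of 19775 genes was read from its brightest probe set, by the mean of the 8 arrays. Of these genes 19735 matched RefSeq by identifier.

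The arrays of 3 groups were fitted in 1 model in limma 3.58.1 (R 4.3.3), with contrasts tested by eBayes and Benjamini-Hochberg adjustment over all genes. Both scripts for limma and Rank Product were tested on simulated data. The alternatives were Rank Product with 100 permutations, an intensity trend, array weights, only the 6 arrays compared, a filter on dim probe sets, median centering, a further quantile normalization, a block for the replicate number, a fit over all probe sets, the mean of a gene's probe sets, an adjusted p under 0.01 and leaving out each array. Fold limits other than 1.5 and the E-box motif were chosen after seeing the data.

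The members and lists were chosen with earlier results of these data known. Genes were named if they were among the 20 largest rises or falls with arrays that do not overlap, named by the study, among the 5 largest called changes of a list or against its direction, called the same way in all of at least 3 probe sets with the largest medians, or at least 2-fold higher or lower with the response element in a promoter. CSF2RB, CEBPA, CEBPD, CEBPE, IRF8, RUNX1T1 and RNA45SN5 were named outside this rule after their values were seen. Markers of cell types were a list of their own, and some of it is not reported here. All probe sets without a single symbol were left out of the comparison. Figures were drawn with matplotlib 3.10.9 in Python 3.11.15.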

Additional observations from a re-analysis of the deposited data

Results flagged for a closer look

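Probe sets that carry no gene symbol in the platform annotation, or several, were outside the comparison and also held differences between NR4A1 WT and GFP. In a limma fit over all probe sets, 258 of 11721 probe sets without a symbol were higher (2.2%) and 250 lower (2.13%), and of 1801 with several symbols 77 were higher (4.28%) and 138 lower (7.66%). The probe set 231213_at without a symbol rose by 2.98 on the log2 scale, from 3.46, 3.65 and 3.64 to 6.72, 6.57 and 6.40, and 208396_s_at rose by 2.79, from 5.12, 5.26 and 5.09 to 8.07, 7.83 and 7.94. In the other direction 228806_at stood at -1.83 and 230406_at at -1.41. Both probe sets listed with AMACR, an enzyme of branched-chain fatty acid oxidation, and with its readthrough transcript were higher, 209424_s_at by 1.78 and 209426_s_at by 1.72. With NR4A1 CEAA these 2 read 7.70 and 7.70, and 7.67 and 7.80, below the 7.91 to 8.07 and near the 7.78 to 7.88 of the GFP arrays.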

How the results depend on the processing

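With Rank Product in place of limma, 443 genes were higher and 419 lower, and with an adjusted p under 0.01 in limma 1147 were higher and 1254 lower, in place of 1971 and 2034. Leaving out 1 array gave 1443 to 1774 higher genes and 1549 to 1916 lower genes, and the other alternatives gave 1479 to 2452 and 1588 to 2509. No gene called in any alternative was called in the opposite direction in the fit reported. Of the 171 genes named by rule that were followed through the alternatives, Rank Product passed 36 fewer than limma. HMOX1 was the only one of these with an adjusted p between 0.01 and 0.05. No other alternative that tested a called gene ended its call, but the filter on dim probe sets kept only 169 of the 171. It left out MMP8, so that call was not upheld there. NR4A3, at -0.27 with an adjusted p of 0.0714, was called at -0.28 after a further quantile normalization and at -0.36 without NR4A1 WT replicate 3. With the mean of a gene's probe sets, several differences were smaller but still called, among them LMO3 at 0.50, TNFRSF10B at -0.31 and TCF3 at -0.18. The share of called genes that were higher ran from 46.9% to 51.4%. Replicate numbers did not pair the arrays, since the deviations of same-numbered GFP and NR4A1 WT arrays correlated at 0.012, -0.041 and -0.008 across genes, and with the replicate number as a block 1695 genes were higher and 1768 lower. Leaving out either NR4A1 CEAA array gave the counts of the fit without both, 1723 and 1824, since a lone array adds nothing to the estimate of spread. Signal over background limits what can be said of dim genes, as no detection calls were used.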
